A study of Homo sapiens with 6 samples.

Results

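Golgins and Golgi tethers are the gene family described here, in ARPE-19 cells with and without exposure to a peroxide-generating enzyme. Members were the probe sets whose platform annotation gives 1 gene symbol and whose symbol is GOLGA1, GOLGA2, GOLGA3, GOLGA4, GOLGA5, GOLGB1, GCC1, GCC2, TMF1 or USO1. There were 32 such probe sets, for 9 of the 10 genes, among 49293 non-control probe sets on the array. USO1 was not analysed here because no probe set carries its symbol alone. A further 2 probe sets that name GCC2 together with RGPD genes were left out by the same criterion. The family was picked with the 3 h minus 0 h changes of these arrays already known, so the changes of its members are given as a description and support no inference about the family.

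ARPE-19 is an established line of human retinal pigment epithelial cells. Cells of the 3 h group (titled H2O2 3H, 3 arrays) received 10 mU/ml glucose oxidase for 3 h, starting 48 h after transfection, and those of the 0 h group (titled H2O2 0H, 3 arrays) were left without it. Glucose oxidase produces hydrogen peroxide while oxidising glucose. The protocol and series design give a GFP plasmid for both groups, whereas the descriptions name GFP with satellite alpha for the 3 h arrays and GFP for the 0 h arrays, so the construct may differ between the groups as well. The labels give no vehicle group kept for the same time, and they do not say whether replicates were separate cultures, so p-values may measure technical spread only.

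Golgins are long coiled-coil proteins that stand out from the Golgi surface like ropes and catch passing transport vesicles. Each is anchored at one end, by a membrane span or by a small GTPase, and different golgins mark the entry (cis) side, the rims and the exit (trans) side of the stack. Tethering by golgins precedes docking by multisubunit complexes and fusion by SNARE proteins. Transcription of some Golgi genes is raised when the organelle is stressed, through a short promoter sequence called the Golgi stress response element.

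Promoter sequences are shown first for 5 members, since they carry the sequence features compared below. Each window runs from 250 bases before to 50 bases after an annotated start (RefSeq, GRCh38.p14), is written 5′ to 3′ on the strand of the gene, and has in capitals every match to ACGTGGC (the Golgi stress response element), TGACGTCA (the cyclic AMP response element), CCAAT (the CCAAT box) or TGACNNNGC (the antioxidant response element core), searched on both strands. GOLGB1 is shown as the member with the lowest 3 h levels relative to 0 h in its brightest probe set, GOLGA2 as one whose probe sets were all higher at 3 h, and GOLGA1, GOLGA5 and the second GOLGA3 window as those with a Golgi stress response element.
GOLGB1 (chr3:121749692-121749991, minus strand): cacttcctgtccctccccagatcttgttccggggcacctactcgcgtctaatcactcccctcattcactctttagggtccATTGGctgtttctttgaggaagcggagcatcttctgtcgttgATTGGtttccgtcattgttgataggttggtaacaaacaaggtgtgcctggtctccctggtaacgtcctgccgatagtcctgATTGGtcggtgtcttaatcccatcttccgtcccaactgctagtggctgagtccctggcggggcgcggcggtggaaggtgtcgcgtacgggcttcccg
GOLGA2 (chr9:128275958-128276257, minus strand): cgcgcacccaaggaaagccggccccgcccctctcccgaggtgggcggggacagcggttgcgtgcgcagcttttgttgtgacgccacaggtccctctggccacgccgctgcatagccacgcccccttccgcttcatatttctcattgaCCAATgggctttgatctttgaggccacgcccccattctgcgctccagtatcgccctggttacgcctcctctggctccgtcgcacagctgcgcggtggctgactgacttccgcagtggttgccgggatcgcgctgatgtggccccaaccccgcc
GOLGA1 (chr9:124941034-124941333, minus strand): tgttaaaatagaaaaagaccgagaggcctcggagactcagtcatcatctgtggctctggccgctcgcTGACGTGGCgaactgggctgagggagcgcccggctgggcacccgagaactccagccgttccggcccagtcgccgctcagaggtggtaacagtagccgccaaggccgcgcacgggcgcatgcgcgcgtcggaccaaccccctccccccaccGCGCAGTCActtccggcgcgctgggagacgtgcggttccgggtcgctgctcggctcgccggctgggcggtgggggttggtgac
GOLGA5 (chr14:92794055-92794354, plus strand): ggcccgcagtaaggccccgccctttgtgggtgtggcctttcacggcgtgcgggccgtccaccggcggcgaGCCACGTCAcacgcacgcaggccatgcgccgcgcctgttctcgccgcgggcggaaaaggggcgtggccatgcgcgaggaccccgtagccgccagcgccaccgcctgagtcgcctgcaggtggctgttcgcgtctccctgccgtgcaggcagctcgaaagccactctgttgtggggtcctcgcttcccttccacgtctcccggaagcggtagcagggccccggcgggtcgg
GOLGA3, second window (chr12:132828820-132829119, minus strand): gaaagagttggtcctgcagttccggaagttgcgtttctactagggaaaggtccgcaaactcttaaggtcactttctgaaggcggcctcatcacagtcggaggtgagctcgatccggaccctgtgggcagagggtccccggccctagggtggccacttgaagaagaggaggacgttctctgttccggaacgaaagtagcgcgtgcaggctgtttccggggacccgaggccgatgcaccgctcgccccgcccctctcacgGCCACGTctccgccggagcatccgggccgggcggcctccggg

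The promoter table held 10 windows for 8 members and none for GOLGA4 or USO1. GOLGB1 had 3 CCAAT boxes on the opposite strand, starting 170, 128 and 47 bases before the start site, while GOLGA2 and GCC2 had 1 each. CCAAT occurred in 34.6% of the 35116 windows of the whole table. The Golgi stress response element was found 181 bases before the start of GOLGA1, 180 bases before that of GOLGA5 and 8 bases after the second start of GOLGA3, against 3.22% of all windows. In GOLGA1 and GOLGA5 the element overlapped an antioxidant response element core, a sequence that occurred in 13.3% of all windows. GOLGA1 held a further antioxidant core 33 bases before its start. TMF1 and GCC1 had a cyclic AMP response element 50 and 31 bases before their starts, against 1.85% of all windows. Of the 3 genes with a Golgi stress response element, GOLGA1 and GOLGA5 were lower and GOLGA3 higher at 3 h in their brightest probe sets. Activity of the element was not tested.

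Values are log2 signals as deposited, and a change is the 3 h mean minus the 0 h mean on that scale. A probe set was tested where its mean over the 6 arrays reached the 40th percentile of the non-control probe sets (log2 4.64), and was called where limma gave an adjusted p under 0.05 over all 29576 tested probe sets. Of the 32 member probe sets 26 were tested and 6 lay under this floor. Among those tested 12 were called lower and 9 called higher at 3 h, and 5 were not called. Over all tested probe sets 25.8% were called lower, 25.6% higher and 51.4% in either direction, and nothing is read from the members' counts, since the family was picked on this contrast. All 3 h arrays lay below all 0 h arrays for 12 member probe sets and above them for 10, while over all tested probe sets the shares were 30.5% and 30.1%, or 60.6% in all. The median change of tested member probe sets was -0.17, against 0.01 for all tested probe sets, and the median size of change regardless of sign was 0.52 against 0.22. RNA was taken from whole cultures, so a smaller number of cells expressing a gene and less RNA per cell cannot be told apart.

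**Figure D1:**
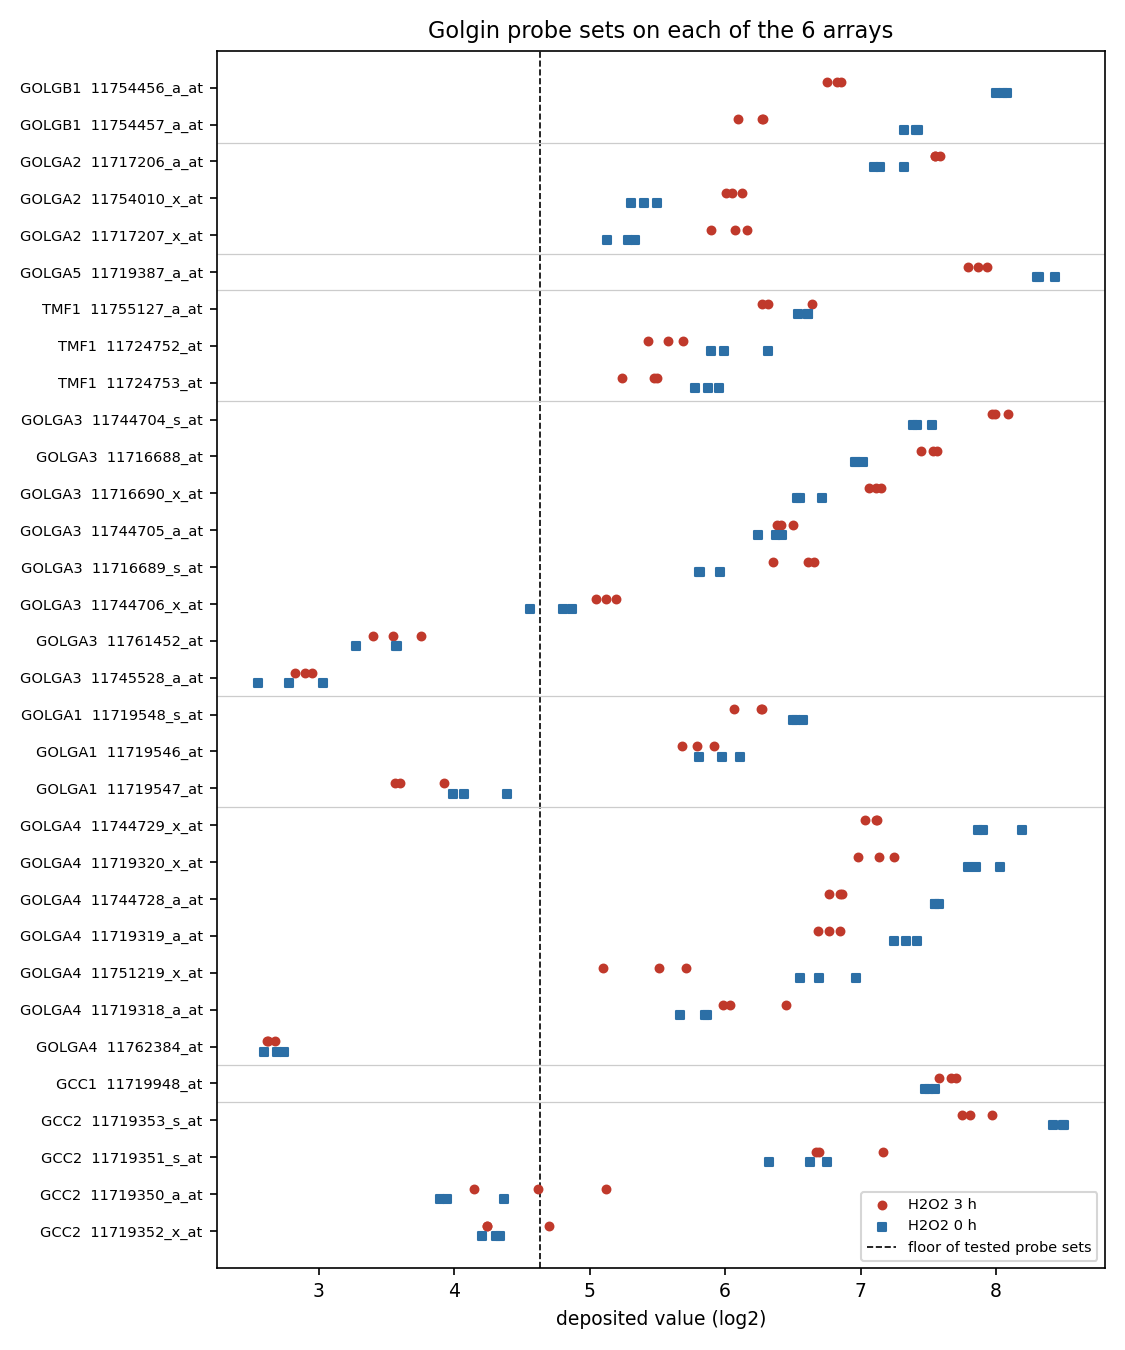
Deposited log2 value (horizontal axis) of each of the 32 member probe sets (rows, grouped by gene) on the 3 h arrays (circles, upper row of points) and the 0 h arrays (squares, lower row of points), 1 point per array. The dashed line is the floor of 4.64 for tested probe sets, and both GOLGB1 probe sets show all 3 h points left of all 0 h points while the GOLGA2 probe sets show the opposite.

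Technical controls on the arrays also separated the groups. All 24 probe sets for the poly-A spike transcripts and 17 of 18 for the hybridization spikes were lower on every 3 h array than on every 0 h array, with median changes of -0.60 and -0.31. The log2 signal of the 5′ actin probe set minus that of the 3′ one averaged -1.20 ± 0.06 at 3 h and -2.06 ± 0.07 at 0 h (SD, n = 3 each), and the two-sided exact permutation p was 0.1, the smallest that this design allows. For GAPDH the same difference averaged -0.13 ± 0.04 at 3 h and -0.39 ± 0.05 at 0 h (n = 3 each, exact permutation p = 0.1). These controls differed between the same groups that are compared in every result below, so sample preparation and treatment cannot be told apart. As for the identity of the line, 8 of 12 retinal pigment epithelium markers had a probe set above the floor. These were OTX2, MITF, KRT8, KRT18, BEST1, PMEL, TTR and SERPINF1, whereas RPE65, RLBP1, TYRP1 and LRAT were under it in their brightest probe sets. Of those tested 4 (OTX2, MITF, KRT8 and KRT18) were called higher and 1 (SERPINF1) lower at 3 h. Among markers of other cells with a probe set of 1 symbol, 4 of 4 photoreceptor and neuron genes, 2 of 3 blood genes, 2 of 2 endothelial genes and 2 of 3 fibroblast genes were above the floor. PTPRC, a leukocyte gene, and THY1, a fibroblast gene, were under it. Group means of the markers of other cells above the floor ran from 4.90 to 6.33. Those of BEST1, PMEL, TTR and SERPINF1 ran from 4.63 to 6.12, and those of OTX2, MITF, KRT8 and KRT18 from 8.15 to 12.6. The fibroblast and pericyte gene PDGFRB rose by 0.59 (limma adjusted p = 9.15e-05), while the photoreceptor gene PDE6B fell by 0.36 and the neuronal gene SYT1 by 0.22 (limma adjusted p = 0.000869 and 0.0151). The part of these markers in the results was not tested.

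GOLGB1 and GOLGA2 went in opposite directions. GOLGB1 encodes giantin, the largest golgin, which is held in the membrane by its C-terminal span and acts on COPI vesicles. Its brightest probe set (11754456_a_at) read 6.83, 6.75 and 6.86 on the 3 h arrays, against 8.08, 8.05 and 8.00 on the 0 h arrays. The change was -1.23 (SE 0.06, n = 3 per group), a level 2.35-fold lower at 3 h. The other probe set (11754457_a_at) read 6.27, 6.28 and 6.10 at 3 h, against 7.41, 7.32 and 7.43 at 0 h, a change of -1.17 (SE 0.07). Both probe sets thus placed every 3 h array more than a full log2 unit under every 0 h array.

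GOLGA2 encodes GM130, the cis-Golgi golgin that receives vesicles carrying p115, the product of USO1. Its 3 probe sets were all called higher at 3 h. The probe set 11717207_x_at read 5.89, 6.08 and 6.17 at 3 h, against 5.33, 5.29 and 5.13 at 0 h (change 0.80, SE 0.09, n = 3 per group). The probe set 11754010_x_at read 6.06, 6.01 and 6.12 at 3 h, against 5.50, 5.31 and 5.40 at 0 h (change 0.66, SE 0.07). Identifiers that end in _x_at or _s_at mark probe sets with probes shared between transcripts or able to cross-hybridize. The brightest GOLGA2 probe set (11717206_a_at), which carries no such mark, gave 7.59, 7.55 and 7.55 at 3 h, against 7.10, 7.14 and 7.32 at 0 h, a smaller change of 0.37 (SE 0.07). The groups did not overlap in any of the 3 probe sets.

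GOLGA5, TMF1 and GOLGA3 were also split. GOLGA5 encodes golgin-84, a membrane-spanning golgin that tethers vesicles within the stack, and had 1 probe set. It read 7.79, 7.94 and 7.87 at 3 h, against 8.44, 8.32 and 8.31 at 0 h. The change was -0.49 (SE 0.07, n = 3 per group), with no overlap between the groups.

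TMF1 encodes a RAB6-binding golgin, and all 3 of its probe sets had lower means at 3 h. The probe set 11724752_at read 5.69, 5.58 and 5.43 at 3 h, against 6.32, 5.99 and 5.90 at 0 h (change -0.50, SE 0.12), and 11724753_at changed by -0.47 (SE 0.09). The brightest (11755127_a_at) read 6.32, 6.27 and 6.64 at 3 h, against 6.61, 6.54 and 6.61 at 0 h, and its change of -0.18 (SE 0.10) was not called. Replicate 3 at 3 h was the high array there. The change was -0.29 and called without it, and -0.13 and -0.11 and not called without replicate 1 or replicate 2 at 3 h.

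GOLGA3 encodes golgin-160, a peripheral Golgi protein, and had 8 probe sets, of which 6 were tested and 5 called higher. Its brightest probe set (11744704_s_at) read 7.99, 8.09 and 7.97 at 3 h, against 7.42, 7.53 and 7.38 at 0 h (change 0.58, SE 0.07, n = 3 per group). The probe set 11716688_at, with no mark for shared probes, read 7.53, 7.45 and 7.57 at 3 h, against 6.96, 6.96 and 7.02 at 0 h (change 0.54, SE 0.06). In both the 3 h arrays stood clear of the 0 h arrays. The probe set 11716689_s_at read 6.61, 6.35 and 6.66 at 3 h, against 5.82, 5.81 and 5.96 at 0 h (change 0.68, SE 0.09). The probe set 11716690_x_at read 7.12, 7.07 and 7.15 at 3 h, against 6.72, 6.53 and 6.55 at 0 h (change 0.51, SE 0.07). The dimmest called probe set, 11744706_x_at, changed by 0.38. All called GOLGA3 probe sets except 11716688_at carry the mark for shared or cross-hybridizing probes. The other tested one without it, 11744705_a_at, stood at 0.09 (SE 0.07), with overlapping groups, and was not called. The tested probe sets of GOLGA3 thus ranged from 0.09 to 0.68. The 2 under the floor changed by 0.09 and 0.10.

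GRIP golgins sit on the trans-Golgi network through a C-terminal GRIP domain, which in some of them binds the GTPase ARL1, and catch carriers that arrive from endosomes. Of 11 tested probe sets of the 4 GRIP golgin genes 7 were called lower, 1 was called higher and 3 were not called, with a median change of -0.57. Over all tested probe sets 25.8% were called lower and 25.6% higher, and nothing is read from the difference, since this contrast chose the family. GOLGA4, which encodes golgin-245, accounted for 5 of those called lower. Its brightest probe set (11744729_x_at) read 7.03, 7.12 and 7.11 at 3 h, against 8.19, 7.90 and 7.87 at 0 h (change -0.90, SE 0.09, n = 3 per group). The probe set 11719320_x_at read 7.25, 6.98 and 7.14 at 3 h, against 8.03, 7.85 and 7.79 at 0 h (change -0.77, SE 0.09). Both carry the cross-hybridization mark. Among those without it, 11744728_a_at read 6.85, 6.77 and 6.86 at 3 h, against 7.55, 7.55 and 7.58 at 0 h (change -0.73, SE 0.06). The probe set 11719319_a_at read 6.85, 6.77 and 6.69 at 3 h, against 7.42, 7.34 and 7.25 at 0 h (change -0.57, SE 0.07). The largest change of all member probe sets, -1.30 (SE 0.16), was that of 11751219_x_at, which also carries the mark. It read 5.10, 5.51 and 5.71 at 3 h, against 6.69, 6.55 and 6.97 at 0 h.

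One GOLGA4 probe set went the other way. The probe set 11719318_a_at read 5.98, 6.03 and 6.45 at 3 h, against 5.87, 5.85 and 5.67 at 0 h, a change of 0.36 (SE 0.12), and was called higher with the groups apart. Replicate 3 at 3 h was its highest array. The call ended without that array (0.21) and without replicate 1, 2 or 3 at 0 h (0.40, 0.39 and 0.30). Among all 7120 genes with at least 2 tested probe sets, 431 (6.05%) had calls in both directions, and GOLGA4 was the only member among them. The remaining GOLGA4 probe set was under the floor, at a change of -0.04.

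GCC2 encodes the GRIP golgin GCC185, and had 2 tested probe sets, of which 1 was called. The brightest (11719353_s_at) read 7.97, 7.75 and 7.81 at 3 h, against 8.49, 8.42 and 8.50 at 0 h, a change of -0.63 (SE 0.07, n = 3 per group). The groups did not overlap there. The other tested one (11719351_s_at) read 6.69, 6.67 and 7.17 at 3 h, against 6.75, 6.63 and 6.33 at 0 h, and its change of 0.28 (SE 0.15) was not called, with the groups overlapping. That value was 0.12 without replicate 3 at 3 h and 0.16 without replicate 3 at 0 h. Both carry the mark for shared probes, and the 2 under the floor changed by 0.56 and 0.11, with overlapping groups in both. The 2 probe sets left out for naming RGPD genes too, which share sequence with GCC2, changed by -1.16 and -0.29, with 3 h means of 3.19 and 3.84 and 0 h means of 4.35 and 4.13, all under the floor.

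GOLGA1, which encodes golgin-97, had 2 tested probe sets. The brightest (11719548_s_at) read 6.27, 6.26 and 6.07 at 3 h, against 6.50, 6.57 and 6.52 at 0 h (change -0.33, SE 0.07, n = 3 per group), with no overlap. The second, without the mark for shared probes, changed by -0.17 (SE 0.09) and was not called, and the one under the floor changed by -0.45. GCC1, which encodes the GRIP golgin GCC88, read 7.71, 7.67 and 7.58 at 3 h in its 1 probe set, against 7.51, 7.48 and 7.55 at 0 h. Its 3 h arrays all lay above the 0 h arrays, but the change of 0.14 (SE 0.06) was not called. The brightest probe sets of the other GRIP golgin genes had the opposite sign. Among their other probe sets 1 of GOLGA4 was called higher, and the mean change over all GCC2 probe sets was 0.08.

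**Figure D2:**
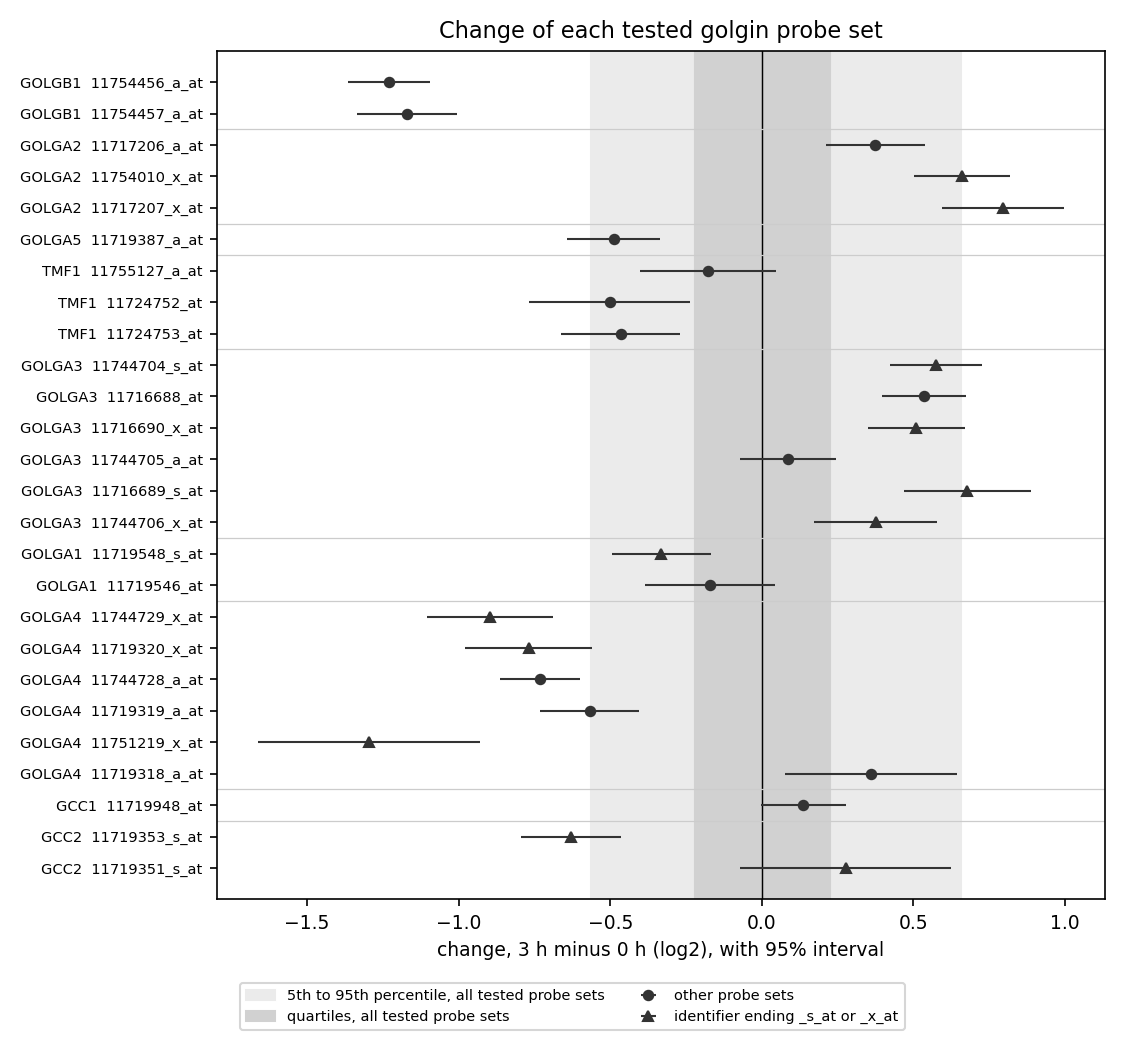
Change of each of the 26 tested member probe sets, 3 h minus 0 h on the log2 scale, with its 95% interval from limma (horizontal axis). Triangles mark identifiers ending in _s_at or _x_at, the dark band spans the quartiles of all 29576 tested probe sets (-0.22 to 0.22) and the light band their 5th to 95th percentiles (-0.56 to 0.66), and both GOLGB1 probe sets, 5 of 6 GOLGA4 probe sets and 1 GCC2 probe set lie left of the light band, while 2 GOLGA2 probe sets and 1 GOLGA3 probe set lie right of it.

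For the Golgi machinery around the golgins, each gene was represented by its brightest probe set, and 12221 genes were tested in one limma fit. At an adjusted p under 0.05, 30.8% of these were lower and 20.6% higher at 3 h, 51.3% in all. Of 98 tested genes in 6 lists of Golgi trafficking genes outside the family, 39 fell, 19 rose and 40 did not pass. Their median change was -0.08, against -0.04 over all tested genes. The lean to lower depended on the probe set used: with all probe sets of each gene averaged, 34 fell and 27 rose of 94 tested. In the brightest probe set of each gene, the 9 measured golgins had a median of -0.33, from -1.23 for GOLGB1 to 0.58 for GOLGA3.

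Other golgins and golgin partners included both the lowest single value of the Golgi lists and several small ones. Of 13 tested 6 fell, 2 rose and 5 did not pass (median 0.01). AKAP9, a scaffold that anchors microtubule nucleation at the Golgi through GM130, fell by 1.77 (limma adjusted p = 1.08e-05). TRIP11, which encodes the cis-Golgi golgin GMAP-210, read 4.80, 5.22 and 5.21 at 3 h, against 6.18, 5.96 and 6.03 at 0 h, and fell by 0.98 (SE 0.12, limma adjusted p = 0.000254, n = 3 per group). BLZF1, which encodes golgin-45, a medial-Golgi golgin, read 7.78, 7.84 and 7.80 at 3 h, against 8.47, 8.27 and 8.34 at 0 h, and fell by 0.56 (SE 0.06, limma adjusted p = 0.000229). The 3 h arrays lay below the 0 h arrays for all of these. GOLGA8A, one of a set of near-identical golgin-like copies whose signals an array may not separate, rose by 0.59 (SE 0.06, limma adjusted p = 0.000128), or 0.21 averaged over all its probe sets.

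Multisubunit tethers are the complexes that act after or beside golgins. Of 29 tested genes of the COG, GARP, EARP, TRAPP and Dsl1 complexes 16 fell, 2 rose and 11 did not pass (median -0.19). Over all tested genes 30.8% were lower and 20.6% higher. Nothing is read from the difference, since the lists were written with earlier results of these data known. VPS54, a GARP subunit, read 6.77, 6.70 and 6.90 at 3 h, against 7.52, 7.51 and 7.38 at 0 h, and fell by 0.68 (limma adjusted p = 0.000151). TRAPPC13 fell by 0.55 and TRAPPC4 by 0.50, both TRAPP subunits (limma adjusted p = 0.000121 and 0.000173). VPS53, which shares the GARP complex with VPS54, went the other way. It read 7.71, 7.73 and 7.59 at 3 h, against 6.56, 6.46 and 6.29 at 0 h, and rose by 1.24 (limma adjusted p = 2.21e-05). With the probe sets of each gene averaged, the change was 0.47 for VPS53 and -0.28 for TRAPPC4.

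Small GTPases and their exchange factors, which recruit golgins to membranes, were mixed: of 16 tested 6 fell, 4 rose and 6 did not pass (median -0.05). ARL1, a partner of the GRIP domain of some golgins, fell by 0.39 (limma adjusted p = 0.00143), and RAB6A, a partner of TMF1, fell by 0.29 (limma adjusted p = 0.00348). RAB33B, a Golgi RAB protein, fell by 0.81 (limma adjusted p = 0.000189), or -0.45 averaged over its probe sets. GBF1, the exchange factor that activates ARF proteins at the cis-Golgi, rose by 0.59 (limma adjusted p = 0.000157), and ARF3 and ARF4 rose by 0.43 and 0.39 (limma adjusted p = 0.000422 and 0.00108). The 3 h and 0 h arrays did not overlap for RAB33B, GBF1, ARF3 and ARF4.

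Golgi SNAREs and their regulators, the fusion machinery, were the list with the smallest share of calls among the 6: 4 of 15 fell, 2 rose and 9 did not pass (median 0.00). BET1 fell by 0.71 and its close relative BET1L rose by 0.78 (limma adjusted p = 9.04e-05 and 5.50e-05), with the groups apart in both, and averaged over all probe sets they stood at -0.42 and 0.28. GOSR1 rose by 0.34 (limma adjusted p = 0.00102), or 0.19 averaged. VPS45, a regulator of SNARE assembly, fell by 0.37 (limma adjusted p = 0.00188), but was not called averaged over its probe sets (-0.13, limma adjusted p = 0.0569).

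Of the vesicle coats, COPI carries cargo back through the Golgi and COPII carries it out of the endoplasmic reticulum. Of 12 tested COPI genes 5 rose, 3 fell and 4 did not pass (median 0.11). ARFGAP1 and ARFGAP2, which trigger uncoating, rose by 0.44 and 0.31 (limma adjusted p = 0.000228 and 0.00126), the second by 0.62 averaged over its probe sets. The coat subunits COPB1 and COPZ2 fell by 0.41 and 0.36 (limma adjusted p = 0.000546 and 0.00130), and COPB1 was not called when averaged (-0.12, limma adjusted p = 0.115). Of 13 COPII genes 4 rose, 4 fell and 5 did not pass (median -0.06). SEC16A, the scaffold of exit sites, rose by 0.55 (limma adjusted p = 0.000648), or 0.89 without probe sets marked as shared. SAR1B and SEC24B fell by 0.40 and 0.38 (limma adjusted p = 0.000650 and 0.000787), the second by 0.21 averaged over its probe sets. SEC13 rose by 0.33 (limma adjusted p = 0.000923), and turned to -0.15 without shared probe sets. In each of these genes the 3 h and 0 h arrays did not overlap in the brightest probe set.

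Other long coiled-coil genes were set beside the golgins because they encode proteins of the same build. They were listed for roles elsewhere in the cell, but some, among them CEP350, CCDC88A and MYH9, have also been linked to the Golgi. Of 33 tested 21 fell, 8 rose and 4 did not pass, while over all tested genes 30.8% were lower and 20.6% higher. The median was -0.40, and that of the 9 golgins on the same scale was -0.33. Nothing is read from these values, since the family and the list were chosen with earlier results of these data known. CEP350 and CENPE, of the centrosome and the kinetochore, changed by -0.92 and -0.86, and CCDC88A, an actin-binding protein, by -0.97 (limma adjusted p = 1.21e-05, 3.13e-05 and 3.80e-05). MYH9, the heavy chain of non-muscle myosin, rose by 1.04 (limma adjusted p = 1.33e-05). Averaged over all their probe sets, CEP350 stood at -0.40 and MYH9 at 1.67, and CEP350 at -0.38 without shared ones.

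**Figure D3:**
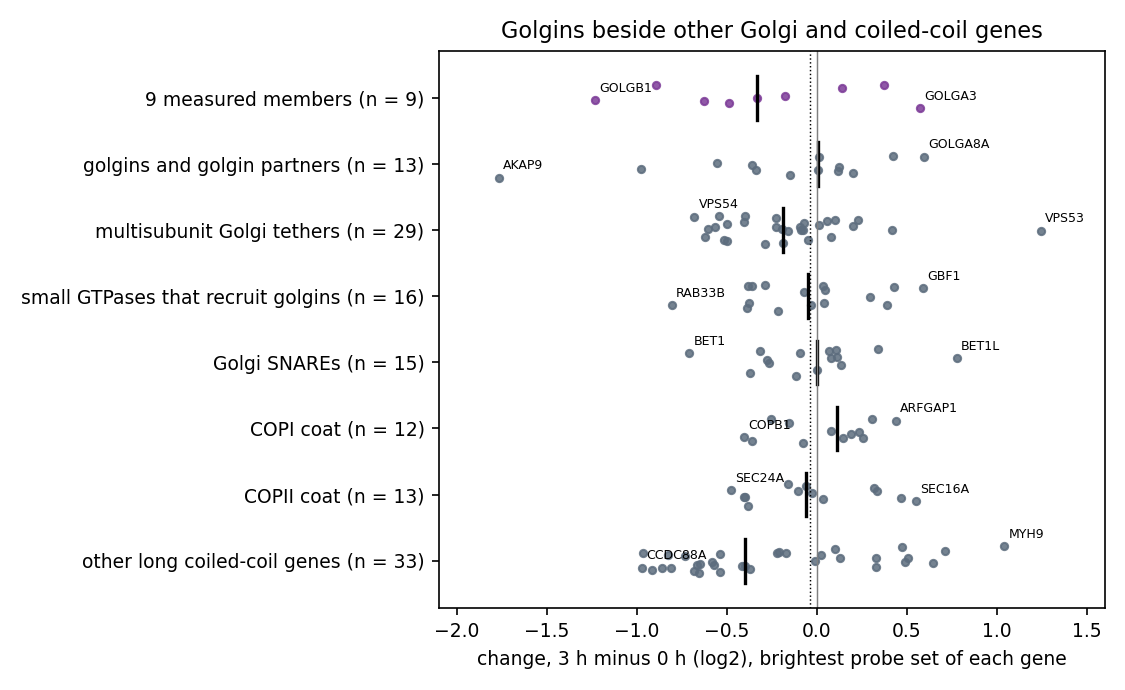
Change of each tested gene, 3 h minus 0 h on the log2 scale, in its brightest probe set (horizontal axis), for the 9 measured golgins (top), 6 lists of other Golgi trafficking genes and a list of other long coiled-coil genes. Thick bars are list medians, -0.33 for the golgins and -0.40 for the coiled-coil genes, and the dotted line is the median of all tested genes (-0.04). The family and the lists were chosen with earlier results of these data known, so no ranking is read from the medians.

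Across all tested genes the change went with the base composition of the promoter window. The median change was -0.10 in the quintile of genes with the lowest share of G and C (27% to 57%) and 0.04 in the quintile with the highest (72.3% to 94%), and the share of genes called lower was 39.8% and 22.3% in these quintiles. Over 10021 genes, which share the same arrays and are not independent, Spearman's rho was 0.17 and Pearson's r was 0.17. GOLGB1 and TMF1 lay in the lowest quintile, with 55.7% and 50.3% G and C. GOLGA2, GOLGA3, GCC1 and GCC2 lay in the middle quintile, with 64% to 67%, and their changes covered both signs (0.37, 0.58, 0.14 and -0.63). GOLGA1 and GOLGA5, both lower at 3 h, lay in the next one up. With the trend on promoter composition removed from each array, a setting chosen after the data were seen, GOLGB1 stood at -1.20 and -1.14, GOLGA2 at 0.37 to 0.79, GOLGA5 at -0.53 and the brightest GCC2 probe set at -0.64.

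**Figure D4:**
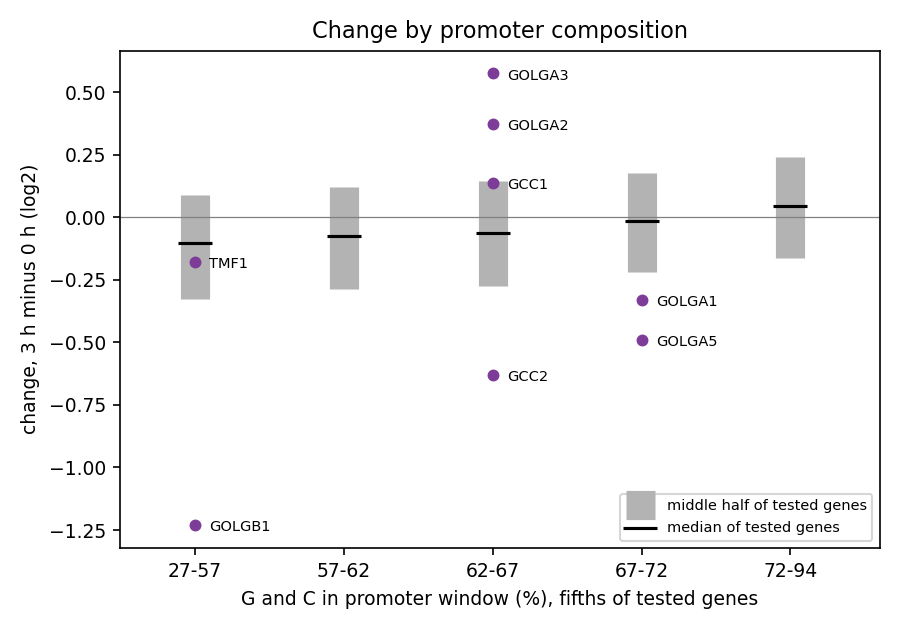
Change of tested genes, 3 h minus 0 h on the log2 scale (vertical axis), by quintile of the share of G and C in the promoter window (horizontal axis). Grey bars span the quartiles and black ticks mark the median of the tested genes with a promoter window in each quintile. Points are the 8 measured members with such a window, of which GOLGB1 at -1.23 lies farthest from the median of its quintile.

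The 5 genes outside the family whose levels over the 6 arrays were most like those of the brightest GOLGB1 probe set were ACOT13, ANAPC11, DNAJB4, BANP and FNTA, with Pearson's r of 0.999 for each. Their changes were smaller than that of GOLGB1, from -0.49 for ACOT13 to -0.13 for BANP, which was not called. The comparison rests on 6 arrays in 2 separated groups, and 200 of 12212 genes had r of at least 0.99.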

How the data were processed

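RNA from 6 ARPE-19 samples, 3 per group, was labelled by 3′ in vitro transcription and put on 1 array each, per the labels' protocols. The deposited log2 values were used as given. Their scale was read from the values (array medians 5.30 to 5.34, range 1.54 to 14.3), while MAS5 and RMA appear in the submitters' processing notes without version or role. Such between-array normalization cannot show a change in total RNA. The number of arrays limits the precision.

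Groups came from the sample titles. Symbols came from the platform table: 44988 probe sets had 1, 1832 several and 2473 none, and 79 controls were left out. Of those with 1 symbol, 44961 matched the GRCh38.p14 gene table and 0 symbols changed. Probe sets at or above the 40th percentile, and for lists 1 brightest probe set per gene, were fitted with lmFit and eBayes of limma 3.58.1 (R 4.3.3) with Benjamini-Hochberg adjustment. Simulated 3 h and 0 h arrays of 29576 probe sets with independent normal noise were used to check this fit. Changes were given only to probe sets at least 1 log2 unit above the floor. Of these, 94 of 100 changes of 1 and 70 of 100 changes of 0.5 (log2) were called, with 7 unchanged probe sets called. Far fewer probe sets changed there than were called in the data, so these shares are not those of the real fit. Figures used matplotlib 3.10.9.

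The members and lists were chosen with earlier results of these data known. Named in full were member probe sets called with a change of at least 0.5 or, failing that, the brightest one of the gene, then the 4 genes with the smallest p in each list, list genes given as background, and the 5 genes most like GOLGB1. Alternatives covered the floor, quantile normalization, median centring, shared probe sets, moderation, array weights, the replicate block, thresholds, averaging of probe sets, the promoter trend and leaving out each array.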

Additional observations from a re-analysis of the deposited data

How the results depend on the processing

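Over all probe sets, leaving out those marked as shared or cross-hybridizing left 4927 called higher and 4667 lower of 19341 tested, and a minimum of 1.5-fold left 1987 and 1334, against 7569 and 7624. For the golgins, the same settings left 3 higher and 7 lower of 14 tested, and 3 and 7 of 26. With the promoter trend removed 8 were called higher and 7 lower of 20, since GOLGA4 has no promoter window and its 6 tested probe sets drop out. For the other Golgi genes a minimum of 1.5-fold left 4 higher and 7 lower. The titles number replicates in both groups. Same-numbered arrays did not deviate together (correlations -0.01, -0.04 and -0.19), and differently numbered ones correlated from -0.17 to 0.20. With 3 arrays per group these values cannot exclude pairing by number. With the replicate block, 6892 probe sets were called higher and 6970 lower, and for the golgins 8 and 12. The call of GOLGA4 11719318_a_at ended under the block, median centring (0.32), a lower floor or none, a threshold of 0.01 and 1.5-fold. No sign of a called golgin probe set reversed in the settings run. SEC13 reversed to -0.15 without shared probe sets. The alternative and the description based on protein length were not run, as no protein table was used here. Of the GCC2 probe sets 2 lie under the floor and were not tested.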
